A study of Homo sapiens with 8 samples.

Results

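Antisense long non-coding RNAs are transcripts read from the strand opposite another gene, and by convention such a gene is named after its partner with the ending -AS and a digit. In 8 libraries of HEK293T cells, 265 of 60652 gene rows had such a symbol and a mean of at least 1 CPM (counts per 1000000 reads that fell in genes in that library). They were chosen from 1823 rows with such a symbol, of which 1232 had at least 1 read. The mean level thus chose the members and is given as a description. HEK293T is a human line from embryonic kidney, and the cells here carried a TRE3G-GFP reporter and grew with 10% fetal bovine serum. Each group held 2 libraries of cells transfected with plasmids for an activator and a guide RNA and sorted for mCherry and BFP after 2 days. The activators were dCasMINI-VPR, a small Cas protein that does not cut and is fused to activation domains, and dCas12a-VPR, a larger Cas protein with the same fusion. dCasMINI-VPR was given with the guides sgNT (non-targeting) or sgTet, and dCas12a-VPR with crNT (non-targeting) or crTet. All 4 groups therefore carried an activator, and no untransfected cells were analysed here. The labels do not say whether the 2 libraries of a group came from separate transfections, so p-values measure only the spread between these libraries.

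Many promoters of protein-coding genes fire in both directions, and the RNA that leaves on the other strand is often a short-lived antisense transcript. Other antisense RNAs start inside an intron or at the far end of the partner, or run across its exons. Some are stable, spliced and polyadenylated, and a few are known to alter the transcription, splicing or stability of the gene they face. The nuclear exosome, with its targeting complexes and the Integrator and cleavage factors, ends and removes much of the rest. The partner on the other strand is called the sense gene below.

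The start regions of the 4 members with the most reported below are shown first, since each faces or neighbours its partner differently. Every line runs 5′ to 3′ on the strand of the antisense RNA, from 250 bases before to 50 bases after its start in RefSeq (GRCh38.p14). Capitals mark matches to the GC box letters GGGCGG or CCGCCC on either strand.
IRS4-AS1: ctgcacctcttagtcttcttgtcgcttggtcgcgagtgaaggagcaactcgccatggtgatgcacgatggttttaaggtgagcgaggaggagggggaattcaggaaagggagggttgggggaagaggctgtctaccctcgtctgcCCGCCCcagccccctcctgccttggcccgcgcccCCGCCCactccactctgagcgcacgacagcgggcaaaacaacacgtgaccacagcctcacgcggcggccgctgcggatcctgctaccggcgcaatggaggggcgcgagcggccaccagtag
ZNF503-AS2: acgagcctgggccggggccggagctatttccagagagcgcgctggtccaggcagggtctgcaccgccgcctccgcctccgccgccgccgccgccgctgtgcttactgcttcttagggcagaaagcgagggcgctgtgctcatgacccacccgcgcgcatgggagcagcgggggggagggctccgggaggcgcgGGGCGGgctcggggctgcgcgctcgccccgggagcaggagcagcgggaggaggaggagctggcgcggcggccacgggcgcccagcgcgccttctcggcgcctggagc
VPS9D1-AS1: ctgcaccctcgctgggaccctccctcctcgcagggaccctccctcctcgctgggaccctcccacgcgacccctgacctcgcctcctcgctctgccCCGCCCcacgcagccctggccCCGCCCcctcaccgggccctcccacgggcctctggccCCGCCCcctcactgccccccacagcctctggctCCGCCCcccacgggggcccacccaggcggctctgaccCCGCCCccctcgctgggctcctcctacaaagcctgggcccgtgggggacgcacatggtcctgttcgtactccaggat
B3GALT5-AS1: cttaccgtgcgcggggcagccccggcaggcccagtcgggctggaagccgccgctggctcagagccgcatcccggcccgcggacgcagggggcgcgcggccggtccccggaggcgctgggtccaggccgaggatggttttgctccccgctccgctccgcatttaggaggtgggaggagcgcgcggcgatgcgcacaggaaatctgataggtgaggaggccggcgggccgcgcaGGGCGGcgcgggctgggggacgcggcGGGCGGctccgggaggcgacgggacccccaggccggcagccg
The IRS4-AS1 window lies at chrX:108736290-108736589 on the plus strand. IRS4 has RefSeq starts 23 and 163 bases from the IRS4-AS1 start, so both genes start inside this stretch. ZNF503-AS2 has 6 RefSeq starts, and the window shown is that of the first along the chromosome, chr10:75401278-75401577 on the plus strand, with ZNF503 starts 236 and 388 bases away. The B3GALT5-AS1 window is chr21:39612773-39613072 on the minus strand, and 1 B3GALT5 start lies 118 bases away while another lies 29574 bases away. VPS9D1-AS1, at chr16:89711606-89711905 on the plus strand, differs from these 3, because the VPS9D1 start is 9042 bases away. The windows held 25 CG dinucleotides in IRS4-AS1, 39 in ZNF503-AS2, 43 in B3GALT5-AS1 and 21 in VPS9D1-AS1, against a median of 14 over 35116 RefSeq windows. The other 5 ZNF503-AS2 windows held between 12 and 34.

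RefSeq windows were found for 208 of the 265 members, 268 windows in all. The median member window held 24 CG dinucleotides. A GC box (GGGCGG or CCGCCC) stood in 162 of the 268 windows, or 60.4%, against 45% of all windows. A CCAAT box (CCAAT or ATTGG) stood in 28.7% against 34.6%. A TATA box (TATAAA or TTTATA) stood in 5.97% against 11.5%. These are letter matches on either strand, not binding sites. The members were chosen by level, and the windows they are set against were not matched for it. These contrasts, and that in CG dinucleotides, therefore do not show a trait of antisense RNAs. Of 178 pairs with windows for both genes, 105 (58.989%) had starts within 1 kb of each other.

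On the hg38 annotation of GENCODE release 29, 263 of the members were found, on 23 chromosomes. The annotation types 194 as antisense, 29 as processed transcripts, 26 as lincRNAs and 6 as pseudogenes. KRT10-AS1, KCNJ5-AS1, CCDC28A-AS1 and DOCK8-AS1 are typed there as protein coding, which sits against the label of a non-coding RNA. Exons of 178 members overlapped exons of the sense gene, and 75 of these also started within 1 kb of it. In 33 the gene bodies overlapped without shared exon bases, 20 lay within an intron, and 21 lay apart head to head, 19 of them within 1 kb. A symbol ending in -AS therefore covered overlapping, intronic and divergent transcripts alike. Another 9, among them HOXA-AS2, HOXA-AS3 and HOXD-AS2, are named after a cluster or have no single sense gene in the tables. Of the rest, LYRM4-AS1 lay tail to tail, FAM131B-AS2 lay on the strand of its namesake, and HPS1-AS1 and DHX9-AS1 were not in that annotation.

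These positions decide how well each RNA could be measured. The members drew a median of 50.3% of their reads from the first read strand (range 42.17% to 57.71%), so the libraries did not keep strand and sense and antisense reads over shared exons cannot be told apart. The counts used ignore strand and leave out reads that fall on exons of more than 1 gene. Counting each strand by itself put those reads back, and the share left out was a median of 38.76% for the members and 13.12% for their 255 sense genes. It was above 50% in 102 members and under 5% in 61. By position the median was 50.82% with overlapping exons, 5.567% for overlap without shared exons, 1.209% for head to head and 0% within introns. Among the largest shares were 99.525% in H1-10-AS1, 99.418% in VIM-AS1, 99.381% in SLC25A5-AS1 and 98.812% in TNS2-AS1. The sense genes of the first 3 encode a linker histone, vimentin and a mitochondrial ADP/ATP carrier, and had 207, 159 and 867 CPM. Their antisense partners kept only 1.32, 1.15 and 2.63 CPM of their own. TNS2-AS1 had 2.54 CPM beside 4.16 CPM for TNS2, a focal adhesion protein.

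**Figure D1:**
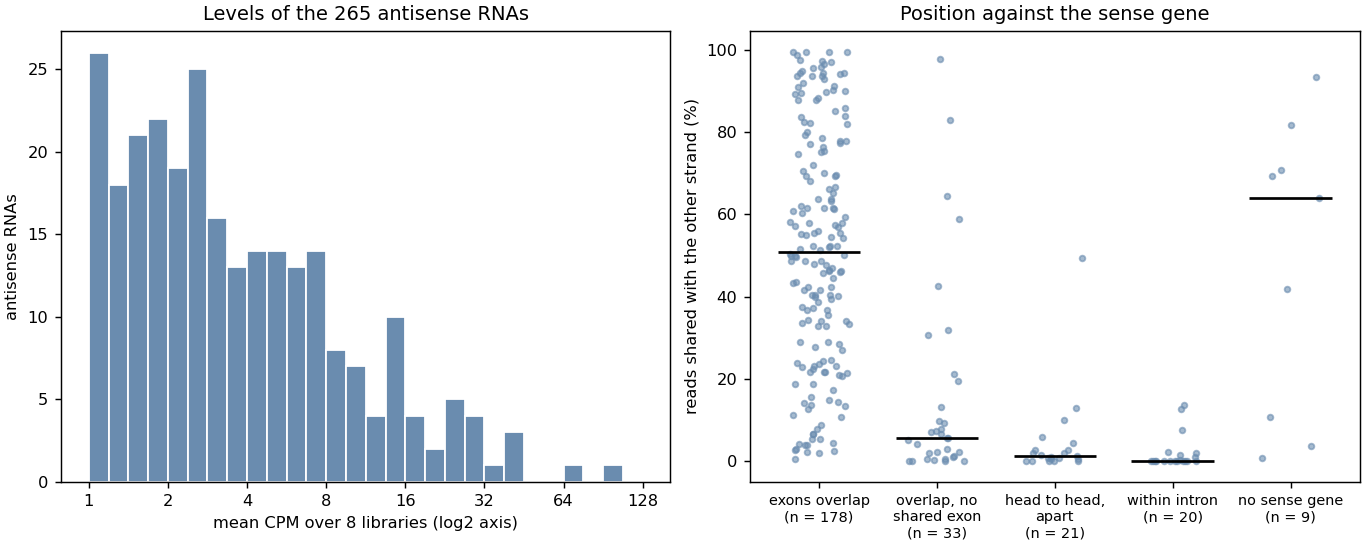
Left, the number of antisense RNAs (y) by mean CPM over 8 libraries (x, log2 axis) for the 265 members. Right, the share of reads shared with the other strand (y, percent) for each member by its position against the sense gene, with the median as a bar (50.82% where exons overlap, 0% within introns). The 4 members of the other positions are not drawn.

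Most members were scarce. Of the 265, 87 had between 1 and 2 CPM, 92 between 2 and 5, 45 between 5 and 10, and 41 at least 10, with a median of 2.997 CPM. All 265 had a read in every library, and 227 reached 1 CPM in all 4 groups. Just above the threshold stood ZNF295-AS1 (1.003 CPM), DCST1-AS1 (1.022) and ZFHX4-AS1 (1.025), and just below it ARHGAP5-AS1 (0.9929) and MCPH1-AS1 (0.9754). DCST1-AS1 was at or above 1 CPM as a group mean only in crTet. The gene reads per library ranged from 17474404 to 21081942, at which 3 reads are 0.142 to 0.172 CPM. This floor covers counting error only.

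A few members were abundant and near constant. FGD5-AS1, a stable RNA beside an exchange factor gene, had the highest mean at 106.5 CPM, with libraries from 97.1 to 115 CPM. Its sense gene FGD5 had 1.05 CPM. OIP5-AS1, also called Cyrano, had 73.2 CPM, between 67.6 and 81.9 CPM over the libraries, and its partner OIP5, a centromere factor gene, had 3.87 CPM. TP73-AS1 had 40.1 CPM, beside 25.1 CPM for TP73, a p53 family factor. None of these 3 passed the test in any of the 5 contrasts below, where their adjusted p with edgeR lay between 0.159 and 0.994.

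Levels of different genes were compared per kilobase of exon that no other gene's exons cover. The 6 highest members on this scale were VPS9D1-AS1 (32.1 CPM per kb), FGD5-AS1 (22.2), IRS4-AS1 (20.4), MAPKAPK5-AS1 (19.2), TRIM52-AS1 (19.1) and ATP2A1-AS1 (17.97). IRS4 alone among their sense genes was higher per kb, at 264 CPM per kb. The others stood at 4.01 for VPS9D1, 0.132 for FGD5, 3.05 for MAPKAPK5 (a kinase), 1.48 for TRIM52 (a ubiquitin ligase) and 0.668 for ATP2A1 (the muscle calcium pump). MAPKAPK5-AS1 ran from 26.3 to 30.8 CPM, TRIM52-AS1 from 15.6 to 20.7 and ATP2A1-AS1 from 4.86 to 8.24 CPM over the 8 libraries, with an edgeR adjusted p of at least 0.183 in every contrast below. Over 253 pairs with at least 200 such bases in both genes, the antisense RNA was the higher one per kb in 80 and the sense gene in 173. The median sense gene had 2.332 times the level of its antisense RNA per kb.

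Counts were tested with edgeR's quasi-likelihood test in 1 model of all 8 libraries, two-sided, and a gene is called at a Benjamini-Hochberg adjusted p below 0.05 over 16606 genes. All 265 members were tested. Over 5 contrasts 13 members were called, 23 calls in all, and they make up the plot of called members by library. The share of all genes called stands beside each contrast below. The contrasts share libraries: sgNT enters both the sgTet and the non-targeting comparison, and crNT both the crTet and the non-targeting one, so a library that stands apart moves 2 of them. The median standard error of a member's log2 fold change was 0.322 for sgTet minus sgNT, against 0.150 over all genes tested. Fits that leave out 1 library, given below, keep only 1 library in its group. A call can be lost there through lost precision alone.

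**Figure D2:**
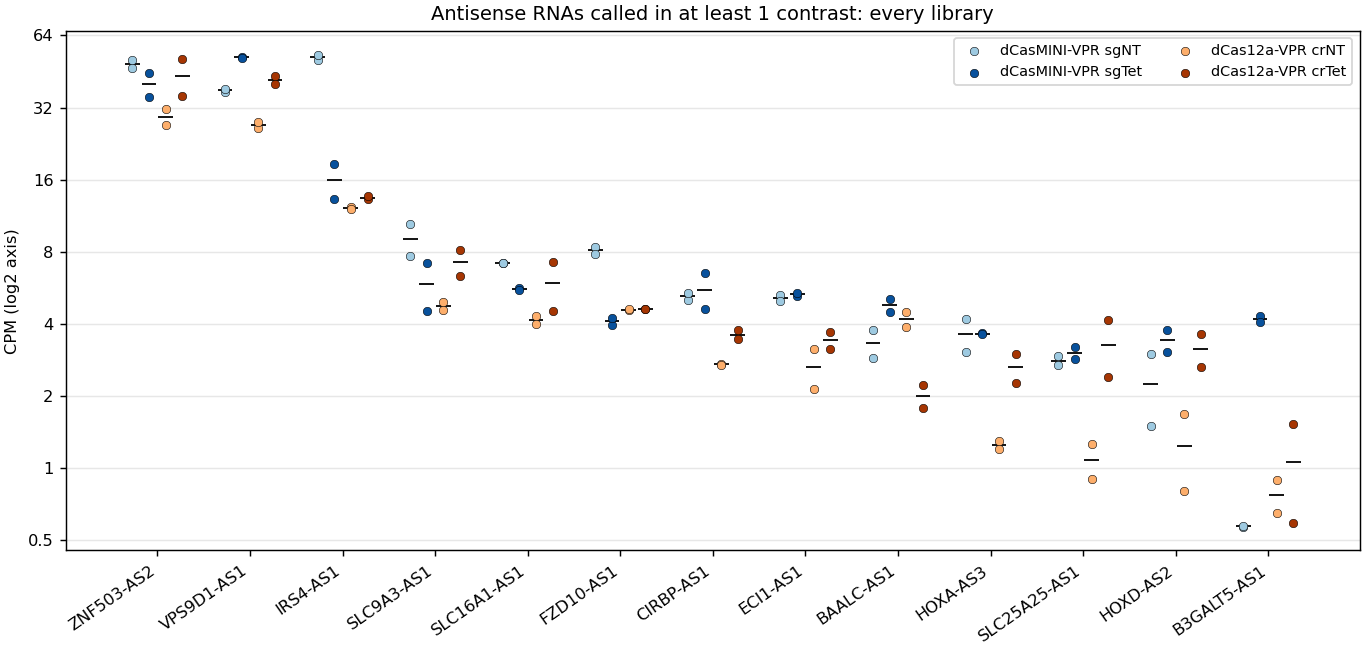
CPM (y, log2 axis) in every library for the 13 antisense RNAs called in at least 1 contrast, by group, with bars at the group means. IRS4-AS1 sits at 50.6 and 53.1 CPM in sgNT and below 19 CPM in the other 6 libraries, and B3GALT5-AS1 is above 4 CPM in sgTet alone.

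With dCasMINI-VPR, 4 members were called between the Tet and the non-targeting guide, with a large difference in IRS4-AS1. B3GALT5-AS1 and VPS9D1-AS1 rose, and IRS4-AS1 and FZD10-AS1 fell. These 4 are 1.51% of the members, where 0.795% of all genes tested were called. B3GALT5-AS1 reached the mean of 1 CPM through its sgTet level, so the share cannot be read against that background, and 3 calls remain without it. The members' median log2 fold change was -0.03, against 0.00 over all genes tested. Of the 235 sense genes tested, 4 were called (1.70%), 3 higher and 1 lower.

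IRS4-AS1 (ENSG00000237863.3, chrX from 108736011 to 108738903, plus strand) runs opposite IRS4, which encodes an insulin receptor substrate protein and is a known high transcript of HEK293 cells. It had 50.6 and 53.1 CPM in sgNT against 18.5 and 13.2 with sgTet, and 12.3 and 12.1 in crNT against 13.2 and 13.7 with crTet. The sgNT libraries thus stood alone, and the other 6 lay close together. From sgNT to sgTet the level fell by 1.67 ± 0.138 (SE) on the log2 scale, 3.18-fold lower (edgeR adjusted p = 4.96e-10). From crNT to crTet it changed by 0.17 ± 0.151 on the log2 scale and did not pass the test (edgeR adjusted p = 0.59). The difference between these guide effects was -1.84 ± 0.204 on the log2 scale (edgeR adjusted p = 7e-07).

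IRS4 itself moved far less. It had 1002 and 1040 CPM in sgNT against 941 and 847 with sgTet, and 827 and 844 in crNT against 973 and 827 with crTet, and sgTet minus sgNT came to -0.15 ± 0.072 on the log2 scale (edgeR adjusted p = 0.376). Reads on exons of both genes are left out of IRS4-AS1, 75.4% of what its strand-wise counts hold. Reads on its own exons alone numbered 983 and 928 in sgNT against 379 and 279 with sgTet, and 236 and 242 in crNT against 269 and 269 with crTet. Counting strands apart added 1488 and 1434 reads in sgNT against 1140 and 1313 with sgTet, and 1353 and 1340 in crNT against 1578 and 1321 with crTet. The sgNT libraries stood apart in the reads on IRS4-AS1 exons alone. The added reads were also more numerous in both sgNT libraries than in the sgTet and crNT libraries, but overlapped between sgNT and crTet. With the added reads the fall with sgTet was 0.75 on the log2 scale (-0.75, edgeR adjusted p = 1.66e-06), still called. This sum holds the same own reads again, and the added ones lie on exons shared with IRS4. It is therefore not a second test of IRS4-AS1.

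**Figure D3:**
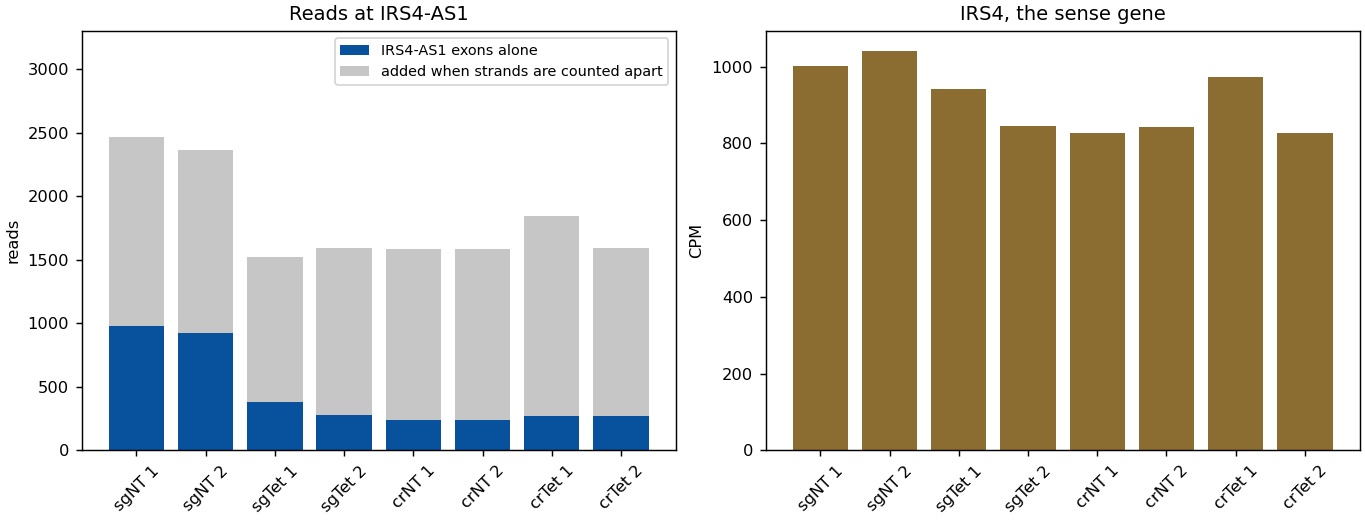
Left, reads at IRS4-AS1 in each library (y), split into reads on its own exons and reads added when each strand is counted by itself. Right, CPM of IRS4 (y) in the same libraries. Own reads number 983 and 928 in sgNT and at most 379 elsewhere, while IRS4 runs from 827 to 1040 CPM.

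B3GALT5-AS1 (ENSG00000184809.13, chr21 from 39597147 to 39612821, minus strand) rose in sgTet together with B3GALT5, a galactosyltransferase gene of glycan synthesis. Its levels were 0.570 and 0.572 CPM in sgNT against 4.30 and 4.08 with sgTet, and 0.888 and 0.648 in crNT against 0.589 and 1.52 with crTet. B3GALT5 had 0.669 and 0.629 CPM in sgNT against 4.26 and 3.65 with sgTet, and 0.836 and 1.10 in crNT against 0.589 and 1.42 with crTet. Both genes were separate from all other groups in sgTet. Against sgNT the antisense RNA was 7.50-fold higher (log2 fold change 2.91 ± 0.476, edgeR adjusted p = 0.000433) and B3GALT5 rose by 2.63 ± 0.465 on the log2 scale (edgeR adjusted p = 0.00118). B3GALT5-AS1 lies within an intron of the longer B3GALT5 form, beside the nearer start in the window above, and shared 12.7% of its reads with the other strand. With the second read strand alone its call was lost (edgeR adjusted p = 0.0588). Its difference of guide effects was 2.42 ± 0.698 (edgeR adjusted p = 0.0723), that of B3GALT5 2.55 ± 0.675 (0.0498).

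VPS9D1-AS1 (ENSG00000261373.1, chr16 from 89711856 to 89718165, plus strand) was higher with a Tet guide under either activator. Its levels were 37.3 and 38.4 CPM in sgNT against 51.9 and 51.6 with sgTet, and 26.2 and 27.9 in crNT against 43.3 and 40.3 with crTet. No 2 of the 4 groups overlapped. The rise was 0.49 ± 0.104 on the log2 scale with dCasMINI-VPR (edgeR adjusted p = 0.0112) and 0.66 ± 0.107 with dCas12a-VPR (edgeR adjusted p = 0.000198), and the difference between them was -0.16 ± 0.149 (edgeR adjusted p = 0.634). VPS9D1, whose product carries a domain of endosomal exchange factors, had 12.1 and 13.7 CPM in sgNT against 10.7 and 15.04 with sgTet, and 9.72 and 7.68 in crNT against 12.6 and 11.8 with crTet, and neither guide effect was called (adjusted p = 0.963 and 0.0835). The antisense RNA shared 49.96% of its reads with the other strand. With both strand counts summed the dCasMINI-VPR rise was 0.195 on the log2 scale (edgeR adjusted p = 0.344), and it was also lost without sgNT replicate 1 (0.188) or 2 (0.145). The dCas12a-VPR rise kept its call without any 1 library, with an adjusted p of at most 0.0289.

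FZD10-AS1 (ENSG00000250208.6, chr12 from 130144315 to 130162256, minus strand) starts head to head with FZD10, a Frizzled receptor gene of Wnt signalling, and shared only 2.57% of its reads. Its levels were 8.34 and 7.84 CPM in sgNT against 3.96 and 4.22 with sgTet, and 4.54 and 4.59 in crNT against 4.62 and 4.62 with crTet. As with IRS4-AS1, the sgNT libraries stood above the other 6. The change from sgNT to sgTet was -0.94 ± 0.229 on the log2 scale, 1.92-fold lower (edgeR adjusted p = 0.0353). FZD10 had 23.8 and 28.4 CPM in sgNT against 17.8 and 17.2 with sgTet, and 10.4 and 12.9 in crNT against 16.2 and 17.3 with crTet, and its change with sgTet was -0.53 ± 0.143 (edgeR adjusted p = 0.0691). The call of FZD10-AS1 did not hold without sgNT replicate 1 (0.28) or 2 (0.203), without sgTet replicate 1 (0.244) and without either crNT library (0.0556 and 0.0552).

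With dCas12a-VPR, 5 members were called between crTet and crNT: VPS9D1-AS1, ZNF503-AS2, HOXD-AS2 and SLC25A25-AS1 rose and BAALC-AS1 fell. They are 1.89% of the members, where 6.32% of all genes tested were called. DESeq2 called 2 members, VPS9D1-AS1 and ZNF503-AS2. It gave no adjusted p for HOXD-AS2, SLC25A25-AS1 and BAALC-AS1, so its lower count is not a failed test of these. Of the sense genes, 28 of 235 (11.9%) were called, 23 higher and 5 lower. The crNT libraries had 14.4% and 12.7% unmapped reads against 8.32% to 9.62% in the other 6, and the part of this in the results that rest on crNT was not tested. Without crNT replicate 1, 14 of the 37 calls made on the 13 members and their sense genes over the 5 contrasts remained.

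ZNF503-AS2 (ENSG00000237149.5, chr10 from 75401519 to 75408982, plus strand) faces ZNF503, a zinc finger repressor gene, and both rose. The antisense RNA had 46.7 and 50.6 CPM in sgNT against 35.4 and 44.5 with sgTet, and 27.1 and 31.5 in crNT against 35.8 and 51.1 with crTet. ZNF503 had 289 and 319 CPM in sgNT against 239 and 283 with sgTet, and 163 and 192 in crNT against 258 and 268 with crTet. The crNT libraries were the lowest for both genes. From crNT to crTet the antisense RNA rose by 0.60 ± 0.156 on the log2 scale (edgeR adjusted p = 0.0294) and ZNF503 by 0.60 ± 0.086 (edgeR adjusted p = 9.15e-05). The rise of ZNF503 differed from its change with dCasMINI-VPR by -0.78 ± 0.121 (edgeR adjusted p = 9e-04), and that of ZNF503-AS2 by -0.84 ± 0.218 (0.066). The ZNF503-AS2 rise was lost without crNT replicate 1 (0.318), crNT replicate 2 (0.0539) or crTet replicate 2 (0.323).

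SLC25A25-AS1 (ENSG00000234771.3, chr9 from 128108581 to 128118693, minus strand) and SLC25A25, a mitochondrial carrier gene, were called in opposite directions. The antisense RNA had 2.68 and 2.92 CPM in sgNT against 3.18 and 2.85 with sgTet, and 1.25 and 0.897 in crNT against 4.13 and 2.38 with crTet, and rose by 1.62 ± 0.375 on the log2 scale from crNT to crTet (edgeR adjusted p = 0.00676). SLC25A25 had 45.8 and 46.6 CPM in sgNT against 29.1 and 36.1 with sgTet, and 54.7 and 50.05 in crNT against 40.3 and 35.6 with crTet, and changed by -0.43 ± 0.110 (edgeR adjusted p = 0.0137). That fall was lost without crNT replicate 1 (0.274), crNT replicate 2 (0.0581) or crTet replicate 2 (0.166), and on the second read strand (0.0571). Of the antisense RNA's strand-wise reads, 75.0% were shared. Own reads numbered 24 and 18 in crNT and 84 and 47 in crTet, while counting strands apart added 173 and 189 in crNT and 171 and 105 in crTet. With these added, the change was 0.02 on the log2 scale (edgeR adjusted p = 0.979), so the rise held only for the exon parts clear of SLC25A25. The rise was also lost without crNT replicate 1 (0.0602), crNT replicate 2 (0.12) or crTet replicate 1 (0.157).

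HOXD-AS2, which faces HOXD3, HOXD8 and HOXD9, genes of body-axis transcription factors, had 1.49 and 2.98 CPM in sgNT against 3.77 and 3.04 with sgTet, and 1.67 and 0.797 in crNT against 3.63 and 2.64 with crTet. It rose by 1.38 ± 0.397 on the log2 scale from crNT to crTet (edgeR adjusted p = 0.0322). Beside it stood 0.67 ± 0.203 for HOXD9 (0.0423), 0.09 ± 0.211 for HOXD8 (0.87) and 0.05 ± 0.286 for HOXD3 (0.861). The sgNT libraries overlapped both crNT and crTet. BAALC-AS1, which lies across BAALC, a gene of brain and leukaemia cells, had 3.76 and 2.86 CPM in sgNT against 5.09 and 4.46 with sgTet, and 4.49 and 3.89 in crNT against 2.21 and 1.78 with crTet. The crTet libraries were the lowest, with a fall of 1.04 on the log2 scale from crNT (-1.04 ± 0.301, edgeR adjusted p = 0.0325). The guide effects of the 2 activators on BAALC-AS1 differed by 1.60 ± 0.414 (edgeR adjusted p = 0.0436). BAALC had a mean of 0.740 CPM and a change of 0.44 ± 0.691 (0.791). With both strand counts summed the HOXD-AS2 change was 0.367 and no longer called (edgeR adjusted p = 0.347). Both calls were lost when any 1 of the crNT or crTet libraries was left out, which leaves a group of 1. The log2 change then ran from 0.942 to 1.99 in HOXD-AS2 and from -1.19 to -0.905 in BAALC-AS1.

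Over the members, the difference of guide effects was called for 2, IRS4-AS1 and BAALC-AS1, or 0.755%, where 1.35% of all genes tested were called. The BAALC-AS1 difference was lost without any library except sgTet replicate 2, with an adjusted p up to 0.282. The IRS4-AS1 difference held without any 1 library, with an adjusted p of at most 1.52e-05. Of the sense genes, 5 were called.

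**Figure D4:**
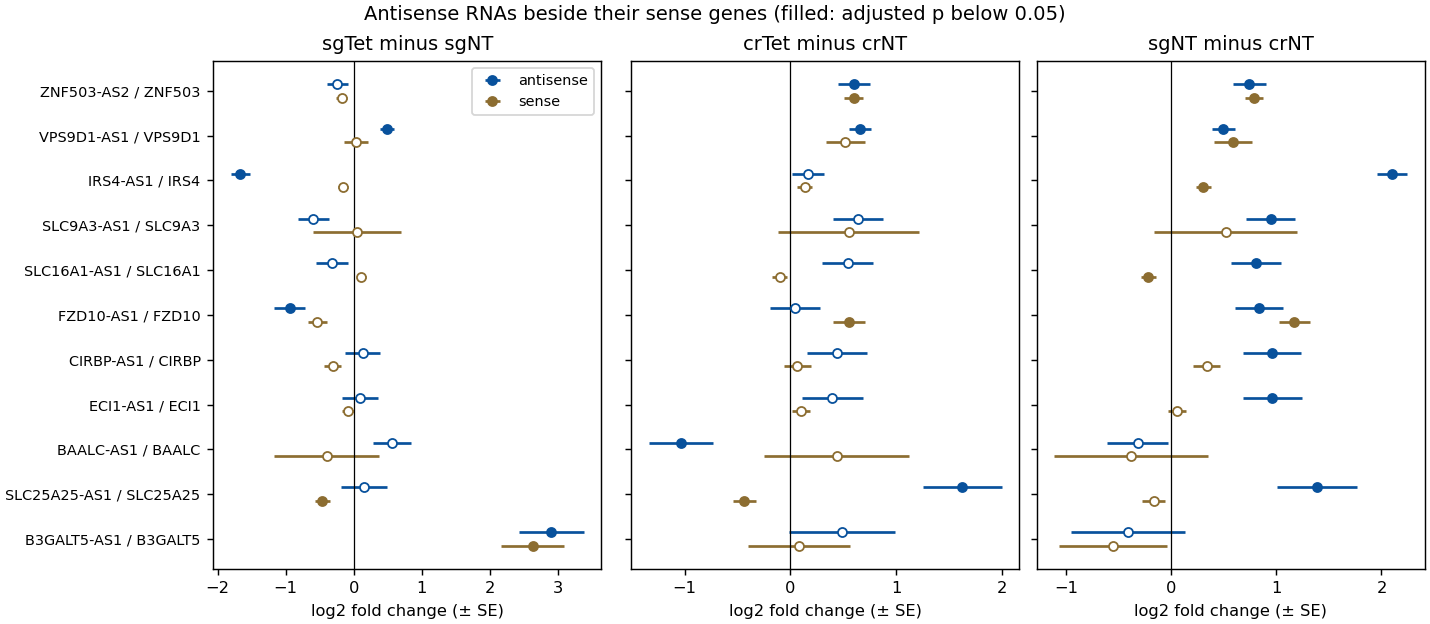
Log2 fold change ± SE (x) of 11 antisense RNAs and their sense genes (rows) for sgTet minus sgNT, crTet minus crNT and sgNT minus crNT, filled where the adjusted p is below 0.05. B3GALT5-AS1 and B3GALT5 lie together at 2.91 and 2.63 with sgTet, while IRS4-AS1 lies at -1.67 and IRS4 at -0.15. HOXA-AS3 and HOXD-AS2 have no single sense gene and are not drawn.

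Between the non-targeting groups, 10 members were called and each was higher in sgNT than in crNT: IRS4-AS1, VPS9D1-AS1, ZNF503-AS2, SLC9A3-AS1, SLC16A1-AS1, FZD10-AS1, CIRBP-AS1, ECI1-AS1, HOXA-AS3 and SLC25A25-AS1. They are 3.77% of the members, where 7.68% of all genes tested were called and 4.09% were called higher. DESeq2 also called 10, all higher. Both sgNT libraries were above both crNT libraries in 79 members (29.8%, against 25.9% of all genes tested) and below both in 39 (14.7%, against 29.5%). The median member differed by 0.05 on the log2 scale, against 0.00 over all genes tested. Reads on no gene feature made up 1.90% and 2.14% of the sgNT libraries and 1.49% and 1.46% of the crNT libraries, whose unmapped share was also the highest. The part of these in the result was not tested. Activator and guide differ together in this contrast and cannot be told apart.

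The step in IRS4-AS1 was 2.10 ± 0.142 on the log2 scale, 4.29-fold higher in sgNT (edgeR adjusted p = 8.27e-13). With strands counted apart and summed it was 0.713 (6.64e-07), a sum that also holds reads on IRS4 exons. IRS4 was higher by 0.30 ± 0.072 (edgeR adjusted p = 0.00589), which was no longer called when sgNT replicate 2 (0.165), crNT replicate 1 (0.147) or crNT replicate 2 (0.0577) was left out. In 3 further pairs both genes were higher in sgNT. FZD10-AS1 was higher by 0.84 ± 0.228 (edgeR adjusted p = 0.0179) and FZD10 by 1.17 ± 0.149 (1.05e-06). ZNF503-AS2 was higher by 0.74 ± 0.156 (edgeR adjusted p = 0.0061) and ZNF503 by 0.79 ± 0.086 (2.87e-07). VPS9D1-AS1 was higher by 0.50 ± 0.108 (edgeR adjusted p = 0.00261) and VPS9D1 by 0.59 ± 0.183 (0.0419). The VPS9D1 call was lost with DESeq2 (0.0564), with library size alone (0.0562) and without any 1 of the sgNT or crNT libraries (up to 0.393). Sense genes gave 23 calls, 18 higher and 5 lower.

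HOXA-AS3 (chr7 from 27129977 to 27155928, plus strand) runs opposite HOXA3 to HOXA7, developmental transcription factor genes, and shared 93.3% of its reads with the other strand. It had 3.04 and 4.18 CPM in sgNT against 3.67 and 3.60 with sgTet, and 1.20 and 1.30 in crNT against 2.26 and 2.99 with crTet, and was higher in sgNT than in crNT by 1.53 ± 0.349 on the log2 scale (edgeR adjusted p = 0.00411). The crNT libraries were the lowest for this RNA. With both strand counts summed the difference was 0.746 (edgeR adjusted p = 3.26e-05). Most of the summed reads lie on exons of the genes opposite it, so this value says little about HOXA-AS3 itself. Of the 5 HOXA genes opposite it, looked up after its values were seen, 4 were called higher in sgNT. HOXA3 was higher by 0.49 ± 0.130 (edgeR adjusted p = 0.0144), HOXA5 by 0.97 ± 0.086 (6.43e-10), HOXA6 by 0.93 ± 0.152 (8.06e-05) and HOXA7 by 1.75 ± 0.210 (3.72e-07). HOXA4 differed by 0.70 ± 0.309 and was not called (edgeR adjusted p = 0.18). HOXA7 had 17.3 and 16.5 CPM in sgNT and between 4.45 and 7.54 CPM in the other 6 libraries. Its sgNT libraries thus stood alone, as in IRS4-AS1.

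The other members called between the non-targeting groups had partners that were not called higher. SLC9A3-AS1, opposite a sodium-proton exchanger gene, had 7.67 and 10.47 CPM in sgNT against 4.50 and 7.16 with sgTet, and 4.54 and 4.93 in crNT against 8.10 and 6.34 with crTet, a difference of 0.94 ± 0.236 (edgeR adjusted p = 0.00975) beside 0.52 ± 0.677 for SLC9A3 (0.732). SLC16A1-AS1, opposite a lactate transporter gene, had 7.15 and 7.15 CPM in sgNT against 5.63 and 5.50 with sgTet, and 3.97 and 4.29 in crNT against 7.27 and 4.52 with crTet. It was higher in sgNT by 0.80 ± 0.241 (edgeR adjusted p = 0.0339), while SLC16A1 was lower, by -0.22 ± 0.069 (0.0476). Neither call was firm: that of SLC16A1-AS1 was lost with strands summed (0.457, edgeR adjusted p = 0.193), and that of SLC16A1 in 5 of 9 other settings (RLE size factors 0.0513, no filter 0.0504). Each was also lost without any 1 of the sgNT or crNT libraries. CIRBP-AS1, opposite a cold-induced RNA-binding protein gene, had 5.04 and 5.38 CPM in sgNT against 4.60 and 6.50 with sgTet, and 2.72 and 2.69 in crNT against 3.44 and 3.75 with crTet, a difference of 0.96 ± 0.275 (edgeR adjusted p = 0.0255) beside 0.34 ± 0.126 for CIRBP (0.141). For all 3 the sgNT and crNT libraries did not overlap, and the crNT level was the lowest or close to it.

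ECI1-AS1 lies within an intron of ECI1, a gene of mitochondrial fatty acid oxidation, and shared 0.307% of its reads with the other strand. It had 5.25 and 4.98 CPM in sgNT against 5.23 and 5.36 with sgTet, and 2.14 and 3.14 in crNT against 3.68 and 3.15 with crTet. All dCasMINI-VPR libraries were above all dCas12a-VPR libraries. Between the non-targeting groups it differed by 0.96 ± 0.279 (edgeR adjusted p = 0.0271), beside 0.05 ± 0.086 for ECI1 (0.806). SLC25A25-AS1 differed by 1.39 ± 0.381 (edgeR adjusted p = 0.019), a value of 0.159 with strands counted apart and summed (0.754). Of the 10 members called between the non-targeting groups, all but IRS4-AS1 lost their call without sgNT replicate 2 or without crNT replicate 1. Such a fit leaves a group of 1 and cannot tell lost precision from dependence on a single library. In the fits without 1 sgNT or crNT library, the FZD10-AS1 difference ran from 0.786 to 0.885 and that of CIRBP-AS1 from 0.914 to 0.997. The range was wider in ECI1-AS1 (0.711 to 1.28) and SLC25A25-AS1 (1.17 to 1.64).

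Between the Tet groups, 2 members were called and both were higher in sgTet, B3GALT5-AS1 by 2.01 ± 0.434 on the log2 scale (edgeR adjusted p = 0.00448) and BAALC-AS1 by 1.28 ± 0.297 (0.00838). They are 0.755% of the members, where 4.28% of all genes tested were called, and 1 remains without B3GALT5-AS1, whose membership rests on sgTet. B3GALT5 was higher by 1.99 ± 0.435 (edgeR adjusted p = 0.00478), and BAALC differed by -1.22 ± 0.730 (0.387). The B3GALT5-AS1 call was lost without crTet replicate 1 (0.115), and the BAALC-AS1 call without sgTet replicate 1 (0.0665) or crTet replicate 2 (0.109). IRS4-AS1 differed by 0.26 ± 0.147 (edgeR adjusted p = 0.341). Of the sense genes, 8 were called, 5 higher and 3 lower.

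In total the members held 1742 and 1762 CPM of the sgNT libraries, 1623 and 1661 of sgTet, 1626 and 1609 of crNT, and 1663 and 1630 of crTet. The sgNT libraries were the highest, and the other 6 overlapped. Without IRS4-AS1 the sums were 1692 and 1709 CPM in sgNT, and between 1597 and 1650 CPM in the other 6 libraries. A single RNA thus made up part of the gap, and sgNT stayed highest without it.

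Other classes of non-coding genes were taken at the same mean of at least 1 CPM, and their calls are given as a description. Their precision was unlike: the median SE for crTet minus crNT was 0.345 for divergent transcripts and 0.333 for long intergenic genes. It was 0.217 for small RNA host genes and 0.326 for the members, so the shares called do not show a difference between classes. Divergent transcripts (symbols ending in -DT, 143 genes) had 1 call for crTet minus crNT (0.699%), 1 between the non-targeting groups (0.699%) and 2 between the Tet groups (1.4%). Of 122 long intergenic genes (LINC), 1 was called for sgTet minus sgNT (0.82%), 3 for crTet minus crNT (2.46%) and 1 between the Tet groups (0.82%). Of 35 small RNA host genes, 3 were called for crTet minus crNT and 3 between the Tet groups, 8.57% each time, against 6.32% and 4.28% of all genes tested. Between the non-targeting groups 1 host gene was called. The 13704 other genes at 1 CPM or more were called at 0.839%, 7.55%, 9.11% and 4.999% for sgTet minus sgNT, crTet minus crNT, the non-targeting and the Tet groups. Symbols also limit these classes: 18 genes with an -AS name in GENCODE release 29 now carry a -DT symbol and are not members.

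**Figure D5:**
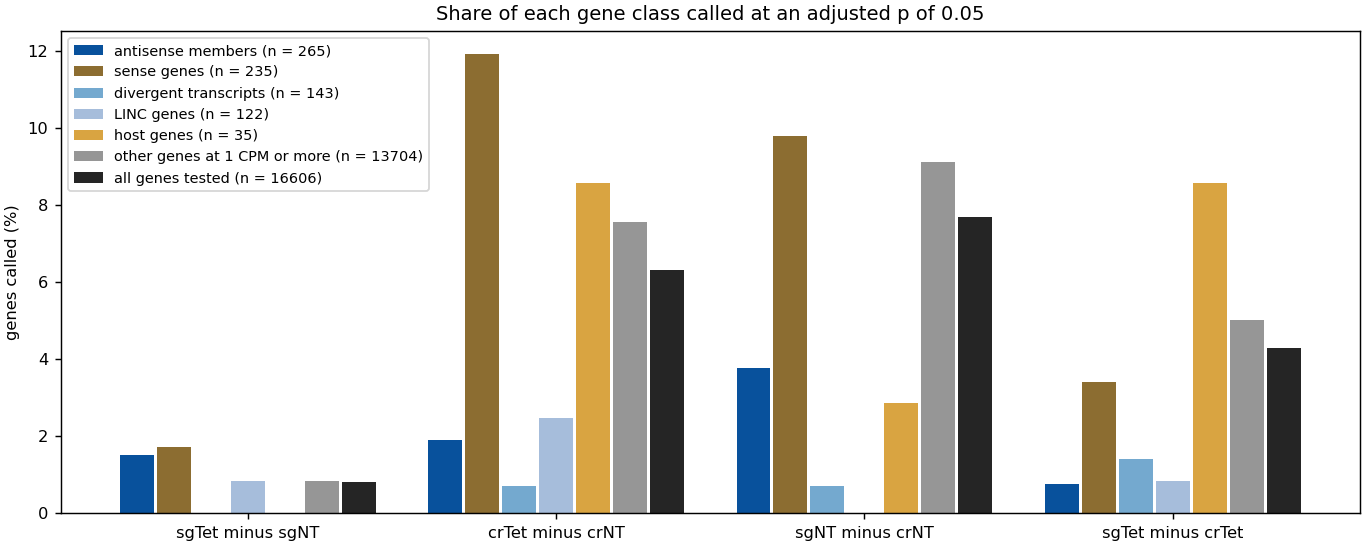
Share of each gene class called (y, percent) in 4 contrasts (x) for antisense members, sense genes, divergent transcripts, LINC genes, host genes, other genes at 1 CPM or more and all genes tested. For crTet minus crNT the members stand at 1.89%, the sense genes at 11.9% and all genes tested at 6.32%.

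Genes that end or remove antisense transcripts were all expressed, 29 of 29 at 1 CPM or more. In crTet against crNT, 4 rose and 1 fell by edgeR's adjusted p, 17.2% of the list against 6.32% of all genes tested. EXOSC3, an exosome cap subunit, rose by 0.45 on the log2 scale, beside INTS1 of the Integrator complex (0.37), the termination factor PCF11 (0.35) and the cap-binding adaptor ZC3H18 (0.31). DIS3, the exosome's nuclease, changed by -0.24. The edgeR adjusted p was near the threshold for PCF11 (0.0499), DIS3 (0.0468) and EXOSC3 (0.0388), and lower for ZC3H18 (0.02) and INTS1 (0.00378). The median of the 29 was 0.07, against 0.01 over all genes tested. With sgTet against sgNT 0 were called by edgeR or DESeq2, with 7 of 29 at an unadjusted p below 0.05 in edgeR. Between the non-targeting groups 4 were higher in sgNT (EXOSC6, SRRT, ZC3H18 and INTS1), 13.8% against 7.68% of all genes tested. Between the Tet groups 3 were higher in sgTet (EXOSC10, DIS3 and MTREX), 10.3% against 4.28%. The median SE of the list was 0.0916 for crTet minus crNT, 0.0915 between the non-targeting and 0.0909 between the Tet groups. Over all genes tested it was 0.1485, 0.1496 and 0.1487, so these shares do not compare genes of like precision. Other genes at 1 CPM or more were called at 7.55%, 9.11% and 4.999%. The difference of guide effects was called by edgeR for PCF11 alone, at -0.62, and by DESeq2 for 3 of the 29, 2 higher and 1 lower.

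The cell line was checked against markers. All 8 HEK293 markers were at 1 CPM or more, with IRS4 the highest at 913 CPM, and all 4 epithelial markers were too. Of the endothelial markers 0 of 4 reached 1 CPM, with summed levels of 0.720 to 1.25 CPM over the libraries. Of the haematopoietic markers, PTPRC was at 0. Of 5 fibroblast markers, 2 did, COL1A1 at 39.3 CPM among them, while COL1A2 was at 0.012 CPM.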

How the data were processed

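Poly(A)-selected RNA from 8 libraries was sequenced. Per the submitters' processing notes, reads were aligned to hg38 by STAR. Its version was not given in the sources used here. The authors deposited raw read counts for every gene without normalization: a count that ignores strand, used here, and 1 for each strand. The 4 totals that name no gene, 25.3% to 29.9% of reads, stayed out of library sizes and tests. Symbols came from a gene name table, and matched 42062 gene rows. Positions came from GENCODE release 29, and start windows from RefSeq.

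Counts were fitted with edgeR 4.0.16 in R 4.3.3 (quasi-likelihood, robust, TMM factors, filterByExpr by group), in 1 model of 4 group means with 4 residual degrees of freedom, a median of 28.9 prior degrees of freedom and a common biological coefficient of variation of 8.04%. P-values were adjusted over 16606 genes. CPM use the summed gene reads without TMM. The SE of a log2 fold change is its size over the root of edgeR's F. The fit was tested on simulated data. DESeq2 1.42.0, other scalings, no filter, each strand's counts, other member thresholds, a replicate block and leaving out each library were the alternatives. The members and lists were chosen with earlier results of these data known. Named members were those called in any contrast, the 6 highest per kb, the 3 on either side of the threshold, the 5 with the largest shared percentage and IRS4-AS1, with their sense genes. OIP5-AS1, TP73-AS1, those typed as protein coding and those named by their position were chosen after their values were seen. A few genes that these rules and the marker lists take in are not reported here.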

Additional observations from a re-analysis of the deposited data

Results flagged for a closer look

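For 5 genes the effect of the Tet guide differed between the activators by the edgeR test of the difference itself, all as log2 values of the dCasMINI-VPR effect minus the dCas12a-VPR effect. IRS4-AS1 differed by -1.84 and BAALC-AS1 by 1.60. Among the sense genes of called members, ZNF503 differed by -0.78, FZD10 by -1.09 and B3GALT5 by 2.55. In IRS4-AS1, FZD10 and ZNF503 the non-targeting groups differed as well, and each difference of effects holds those libraries. The IRS4-AS1 and ZNF503 differences kept their calls without any 1 library (adjusted p of at most 1.52e-05 and 0.0183), FZD10 lost its own without sgNT replicate 2 (0.0948) or crNT replicate 1 (0.0943), and B3GALT5 lost its own in 6 of 8 such fits (up to 0.216).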

How the results depend on the processing

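Counts of called members were, in the order sgTet minus sgNT, crTet minus crNT, their difference, the non-targeting groups and the Tet groups, 4, 5, 2, 10 and 2. DESeq2 gave 2 for crTet minus crNT, 1 for the difference and 3 between the Tet groups, but it gave no adjusted p for some of the edgeR calls. Among the members these were HOXD-AS2, SLC25A25-AS1 and BAALC-AS1 for crTet minus crNT, and IRS4-AS1 and BAALC-AS1 for the difference. The 1 member that DESeq2 called for the difference was thus not called there by edgeR. Of the 37 calls on members and their sense genes, 30 had a DESeq2 value and 29 of these were kept. Library size alone gave 1 for the difference, and no filter on low counts gave 5. The first read strand gave 2 for crTet minus crNT and 4 between the Tet groups. The second gave 2 for sgTet minus sgNT, 4 for the difference and 1 between the Tet groups. Both strands summed, an alternative chosen after seeing the data, gave 5 for the difference and 6 between the Tet groups. Members from 2 CPM gave 1 between the Tet groups. Leaving out each library in turn gave ranges of 2 to 10, 1 to 9, 1 to 8, 1 to 12 and 1 to 12, and 10, 8 and 12 for sgTet minus sgNT, the difference and the Tet groups came without sgTet replicate 2. The cause was not tested. In SLC25A25-AS1 the second read strand turned the crTet minus crNT change to -0.058. IRS4-AS1 kept its 3 calls in every edgeR alternative and without any 1 library. The alternatives that use strand-wise counts also hold reads on IRS4 exons, so they do not test IRS4-AS1 by itself. Deviations of same-numbered libraries had correlations from -0.083 to 0.173, which with 2 libraries a group cannot settle whether replicate numbers pair them. A replicate block within each activator gave 4 for the difference and left the other counts as they were. It kept all 37 calls on members and their sense genes, and pairing across activators was not fitted. The members' median SE was 0.322 against 0.150 for all genes tested in sgTet minus sgNT.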
